A study of Mus musculus with 4 samples.

Results

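Fos binding was mapped in mouse colonic epithelium by CUT&Tag, in which an antibody brings the transposase Tn5 to the bound protein so that the DNA around it is cut and tagged. The 318 peak summits described here are those on chromosomes 1 to 19 whose nearest protein-coding gene is an olfactory receptor gene (symbol beginning Olfr) or a vomeronasal receptor gene (Vmn1r or Vmn2r). They were chosen by position alone, with a distance of 0 for a summit inside a gene, and make up 0.180% of 176597 autosomal summits. The whole list holds 178981 summits. The 4 libraries, all of wild-type mice and of the batch labelled DSS21, came from scraped colonic mucosa of 2 healthy controls and 2 samples recovered from colitis. For the latter, the drinking water held 1 to 1.5% dextran sodium sulfate (DSS), which injures the colonic lining, in 3 cycles of 7 days with and 10 days without it, and tissue was taken 22 days after DSS ended. Age and any pooling of animals are not given in the labels. With 1 peak list for the whole series, healthy and recovered tissue could not be compared, and the values that follow carry neither replicate errors nor p-values.

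Olfactory receptors are G protein-coupled receptors of the nasal epithelium, and each olfactory neuron expresses a single one of them. The Vmn1r and Vmn2r genes encode the pheromone receptors of the vomeronasal organ. Both kinds arose by tandem duplication and lie in long clusters, which in olfactory neurons are packed into heterochromatin while the factors Lhx2, Ebf and Ldb1 gather enhancers around the chosen allele. Fos is a subunit of the AP-1 transcription factors, which bind the motif TGANTCA. A few olfactory receptors are also known outside the nose, among them Olfr78 and Olfr558 in enteroendocrine cells of the gut.

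Few receptor genes had a Fos summit near their start, and 4 windows in which a called region reached into the 250 bases before the start are printed to show what sequence lay there. RefSeq windows before the listed start (GRCm38.p6) were matched for 1260 of the 1458 autosomal receptor genes, and 6 of the 1265 windows overlapped a called region. Shown are the Vmn2r and the Vmn1r window among these 6, the Olfr window with the highest fold, and that of Olfr1411 as a weak one. Letters run 5′ to 3′ and capitals mark the bases inside the called region.
Vmn2r29, chr7:7278290-7278539, minus strand: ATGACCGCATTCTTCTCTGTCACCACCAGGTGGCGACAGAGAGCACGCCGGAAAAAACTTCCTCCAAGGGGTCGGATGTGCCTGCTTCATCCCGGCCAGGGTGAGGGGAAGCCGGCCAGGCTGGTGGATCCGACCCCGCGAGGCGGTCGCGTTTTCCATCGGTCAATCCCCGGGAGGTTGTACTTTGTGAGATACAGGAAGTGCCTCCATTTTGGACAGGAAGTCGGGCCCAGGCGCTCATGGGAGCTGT
Olfr655, chr7:104597180-104597429, minus strand: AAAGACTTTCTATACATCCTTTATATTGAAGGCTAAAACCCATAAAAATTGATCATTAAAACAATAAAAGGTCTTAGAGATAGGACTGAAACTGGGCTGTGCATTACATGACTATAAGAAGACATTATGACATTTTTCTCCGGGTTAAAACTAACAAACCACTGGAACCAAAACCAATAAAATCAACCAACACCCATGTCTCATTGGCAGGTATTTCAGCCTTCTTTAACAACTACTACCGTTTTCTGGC
Olfr1411, chr1:92596271-92596520, plus strand: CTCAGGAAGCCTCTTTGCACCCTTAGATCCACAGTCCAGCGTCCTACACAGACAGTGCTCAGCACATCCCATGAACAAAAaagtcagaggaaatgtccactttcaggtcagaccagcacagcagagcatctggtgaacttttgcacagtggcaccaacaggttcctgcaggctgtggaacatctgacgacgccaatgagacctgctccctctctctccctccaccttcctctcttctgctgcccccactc
Vmn1r201, chr13:22474368-22474617, plus strand: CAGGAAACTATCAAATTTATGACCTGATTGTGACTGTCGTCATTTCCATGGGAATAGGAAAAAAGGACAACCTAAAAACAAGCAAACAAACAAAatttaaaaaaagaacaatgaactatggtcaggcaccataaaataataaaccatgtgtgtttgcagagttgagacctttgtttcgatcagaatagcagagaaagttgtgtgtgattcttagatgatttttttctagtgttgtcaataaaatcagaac
Vmn2r29 had a summit 164 bp before its listed start, with a fold enrichment (the authors' linear ratio of signal to background) of 6.01, and another 166 bp after it, with a fold of 11.5. The chloride channel gene Clcn4 lay 3856 bp from the first of these summits. The Vmn2r29 window held 17 CpG dinucleotides, the highest number among the 1265 receptor windows, and 60.8% G and C, against a median of 34.8% over receptor windows and 53.2% over 30131 windows of other genes. The summit of Olfr655 lay 21 bp inside the gene with a fold of 9.62, in a window of 35.2% G and C. At Vmn1r201 the summit, 304 bp before the start, had a fold of 3.85, and at Olfr1411, 492 bp before the start, 2.89. So the 2 strongest of the 4 windows differed in base composition, and both were covered by a region over all 250 bases. None of the 6 overlapped windows held the AP-1 motif TGANTCA, which reads the same on both strands. Only the Vmn2r29 window contained a summit, and at Olfr651 the region covered 2 of the 250 bases. The summits of the other windows lay before the window or inside the gene, so the sequence under them was not read. That motif was present in 174 of the 1265 receptor windows (13.8%, 95% Wilson interval 11.97 to 15.8) and in 6.77% of all 31396 windows, and it was most frequent in Vmn2r windows, at 31.6% (23.9 to 40.5). Such intervals treat windows as independent, although 66 receptor windows had a letter-identical second window. Receptor windows were also poorer in G and C, and the part of base composition in these motif shares was not tested. Summits within 1000 bp of the start were rare, at 13 of the 1265 windows and 0 of those 174. With so few summits, neither these counts nor the 6 overlapped windows can tell whether windows with the motif differ from the others. TAATTA, the core bound by homeodomain proteins such as Lhx2, was in 18.2% of Olfr windows and 4.81% of all. It was also in 16.2% of Vmn2r windows and 7.28% of Vmn1r windows, so it was not particular to Olfr genes. The O/E motif of the Ebf factors was in 0.425% of Olfr windows (0.165 to 1.09) and 0.790% of all. No Vmn1r or Vmn2r window held the O/E motif, and the Olfr interval includes the share of all windows. TGACGTCA, the cyclic AMP response element, was in 0.237% of receptor windows and 1.58% of all.

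The labelled tissue was checked by summits within 1000 bp of either end of marker genes, which 63.3% of all autosomal protein-coding genes had, so that their presence alone marks no tissue. All 10 colon epithelium markers had one, with a median fold of 70.6. Folds ran from 18.8 at the keratin genes Krt18 and Krt20 to 158 at the villin gene Vil1 and 173 at the keratin gene Krt8. The median over all autosomal protein-coding genes with such a summit was 27.7, and Muc2, at 19.2, also lay below it. The leukocyte markers Ptprc, Cd3e and Cd79a had no such summit. Of 7 olfactory neuron markers, 3 had one, Cnga4 at 245, Omp at 10.1 and Gnal at 2.65, and Adcy3, Stoml3, Rtp1 and Gap43 had none. The Cnga4 summit lay 285 bp from an end of that gene and 167 bp from an end of Fam160a2, and no summit had Omp as its nearest gene. All 3 vomeronasal neuron markers, Gnai2, Gnao1 and Trpc2, had a summit within 1000 bp of an end. Among stromal markers, 2 of 5 had one, Col1a1 at 6.98 and Pdgfra at 4.33. No library without the Fos antibody was used here, so cutting of open chromatin without Fos was not measured, and the number of fragments per library is unknown. The caller's background was 3.16 fragments per base, which gives each summit a pileup in whole fragments with an exact 95% Poisson interval for counting error only.

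Bases closest to receptor genes were sparse in Fos summits. They amounted to 51.4 Mb, or 2.14% of autosomal bases, and their 318 summits gave 6.19 summits per Mb (95% Poisson interval 5.53 to 6.91), against 74.96 per Mb (74.6 to 75.3) for all other autosomal bases. The density on the other bases was 12.1 times that around receptors. Sequence over 200 kb from any protein-coding gene, called gene deserts here, had 9.62 summits per Mb (9.34 to 9.91), 1.56 times the receptor density. Most receptor genes had no summit of their own, since 140 of 1458 (9.60%) were nearest to 1 or more and 81 of those to a single summit.

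The summits around receptors were weak. Their median fold was 4.81 (95% order-statistic interval 4.57 to 5.29, quartiles 3.61 and 8.36), against 6.73 for all other autosomal summits and 5.05 in gene deserts. The median pileup was 19 fragments against 27. A fold over 20 was reached by 22 of the 318 (6.92%), beside 19.6% of all autosomal summits, and 67.6% lay at or below the autosomal median. None was among the 1000 strongest autosomal summits and 6 were among the 10000 strongest. Regions here were narrower too, with a median width of 589 bp at a summit against 900 bp elsewhere, and 52.8% of these summits stood alone in their region, against 39.8% elsewhere.

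Position within the clusters was described with clusters built from the gene table. A chain of at least 5 receptor genes with gaps of at most 500 kb counted as 1 cluster, which gave 45 clusters with 1407 of the 1458 genes. The edge was taken as the bases closest to a receptor gene outside the cluster, together with the first 50 kb inside either end, and the rest as interior. Counting every autosomal summit whatever its nearest gene, the density fell steeply at the ends of the clusters. From 250 to 75 kb outside, bins of 25 kb held between 110 and 129 summits per Mb, and the last 25 kb outside held 57.3 (47.9 to 68.1). The first 25 kb inside held 12.9 (8.63 to 18.5) and the next 25 kb 8.56 (5.15 to 13.4). Farther in, the bins rose as high as 32.7, at 150 to 175 kb, where 26 of 61 summits were nearest to a receptor gene. The cluster spans enclosed 232 non-receptor genes, and 634 summits inside the spans were nearest to a non-receptor gene, against 194 nearest to receptors.

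**Figure D1:**
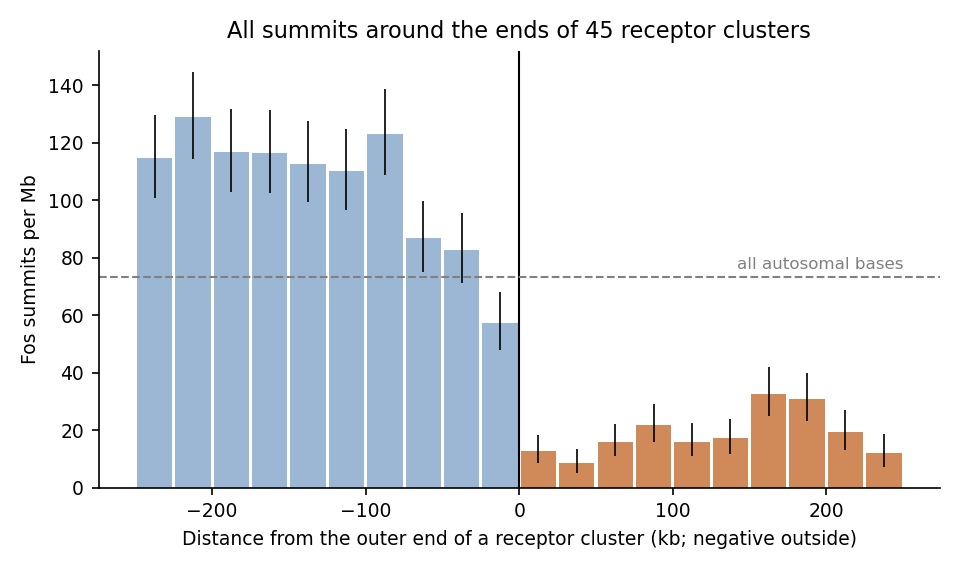
Fos summits per Mb (y axis) in 25 kb bins by distance from the outer end of a receptor cluster (x axis, kb, negative outside), over both ends of 45 clusters and whatever gene is nearest. Bars outside are blue and bars inside orange, thin lines are 95% Poisson intervals, and the dashed line is the density over all autosomes, 73.5 per Mb; the bar just outside stands at 57.3 and the bar just inside at 12.9.

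Among summits closest to receptor genes, edges were denser than interiors in the pooled clusters. The edges held 71 summits on 6.77 Mb, 10.5 per Mb (8.19 to 13.2), and the interiors 155 on 41.2 Mb, 3.76 per Mb (3.19 to 4.40). The ratio of densities was 2.79, with an exact binomial interval of 2.08 to 3.72 that treats summits as independent although many share a region. It ran from 2.35 without the cluster from Olfr9 to Vmn2r87 to 3.17 without that from Olfr1370 to Vmn1r223, when each cluster was left out in turn. The excess sat close to the ends: the first 10 kb inside had 19.1 summits per Mb (11.1 to 30.6), the stretch from 25 to 50 kb had 5.50 (2.75 to 9.85), and the deepest parts, over 800 kb inside, had 2.49 (1.63 to 3.65). Between these, the stretch from 100 to 200 kb held 7.69 (5.65 to 10.2), above its neighbours on either side, so the density did not fall steadily. In these pooled densities, position is mixed with cluster size. The cluster from Olfr1416 to Olfr12 had 0.111 of its 0.152 Mb at the edge, and that from Olfr987 to Olfr1274 had 0.180 of 5.02 Mb. Summits of the first 10 kb came from 8 clusters and those over 800 kb inside from 7. Not every cluster followed the pooled pattern. Of the 43 that had interior bases, the edge was denser in 21, the interior in 16, and 6 had no summit around their receptors.

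Fold showed no stable order between edges and interiors. The median fold was 5.05 at edges (4.33 to 7.22) and 5.29 in interiors (4.57 to 6.01), a ratio of 0.955. Intervals of both medians overlapped, and the direction turned in 4 of 10 alternatives, with ratios from 0.955 to 1.23. Split further, the 32 summits outside the clusters had a median of 7.58 (4.57 to 11.5) and a highest fold of 36.8, while the 39 within 50 kb inside had 4.33 (4.09 to 6.01) and a highest fold of 105. A fold over 20 was reached by 5 of 71 edge summits (7.04%) and 12 of 155 interior ones (7.74%), both below the 19.6% of all autosomal summits. In the 16 clusters with summits in both zones, the edge median was higher in 8, lower in 7 and equal in 1. The 92 summits near the 51 receptor genes outside any cluster had a median of 4.45.

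**Figure D2:**
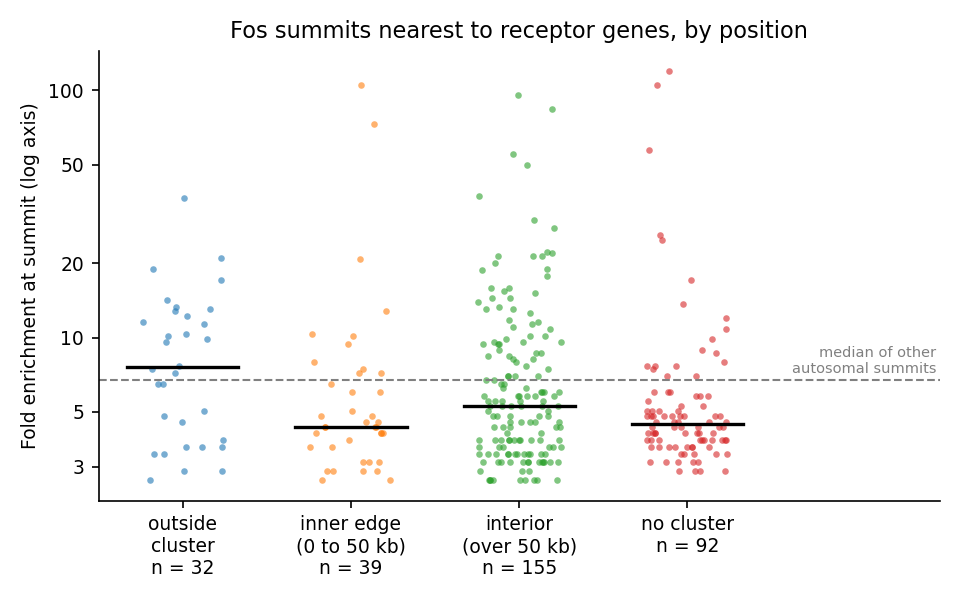
Fold enrichment of each of the 318 summits (y axis, log scale) by position relative to receptor clusters (x axis); each point is a summit, spread sideways for visibility, black bars are medians and the dashed line is the median of other autosomal summits, 6.73. The 4 groups overlap, with medians of 7.58 outside, 4.33 at the inner edge, 5.29 in the interior and 4.45 near unclustered genes.

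A second division used the flanking genes in place of distance. Summits with a receptor gene on both sides numbered 155 on 41.6 Mb, 3.73 per Mb, and those next to a non-receptor gene or a chromosome end numbered 163 on 9.84 Mb, 16.6 per Mb, a ratio of 4.44. Only 78 of the 163 belonged to receptors in clusters, against 148 of the 155, so the 163 are not cluster edges alone. Of the 163, 52 lay before the first protein-coding gene placed above the first base counted. Both classes had a median fold of 4.81.

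Of the 5 largest clusters, 4 had fewer than 3 summits per Mb, as had 23 of all 45 clusters, whose median was 2.93. On chromosome 2 (85330967 to 90401674) the 222 olfactory receptor genes from Olfr987 to Olfr1274 had 5 summits, 0.997 per Mb (0.324 to 2.33), and the 3847.65 kb between the summits at 86182951 and 90030598 held 170 receptor genes and no summit of any kind. A fold of 20.9, the highest there, was measured 63918 bp outside the cluster, between Lrrc55 and Olfr987, and one of 4.33 stood near Olfr1274 at the other edge. The 3 in its interior had folds of 8.42 near Olfr996, 3.85 near Olfr52 and 3.37 near Olfr1265. The 86 genes from Vmn1r91 to Vmn1r183 on chromosome 7 had 2 summits, 0.660 per Mb, and the 95 from Olfr160 to Olfr986 on chromosome 9 had 7, 2.92 per Mb. From Olfr1417 to Olfr1505 on chromosome 19, 63 genes had 4 summits, 2.16 per Mb. Between Olfr543 and Olfr692 on chromosome 7, 126 receptor genes had 22 summits, 9.96 per Mb (6.24 to 15.1), and 27 non-receptor genes lay among them. No summit passed the authors' threshold around the receptors of 8 clusters, among them the 37 genes from Olfr1275 to Olfr1318 and the 25 from Olfr172 to Olfr209. The other 6 were small, with 5 to 13 genes.

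The 5 densest clusters had 25 or fewer receptor genes, although small clusters were also among the empty ones. From Olfr221 to Olfr1507 on chromosome 14, 8 receptor genes shared their span with 8 non-receptor genes and had 9 summits, 44.3 per Mb (20.2 to 84.0). The 9 genes from Olfr288 to Olfr279 on chromosome 15 had 36.1 per Mb, with 7 of 9 summits at the edge, and the 6 from Olfr70 to Olfr155 and the 8 from Olfr1416 to Olfr12 had 29.4 and 26.3, all at the edge. The cluster from Olfr693 to Olfr716 on chromosome 7 went the other way. It enclosed no other protein-coding gene, yet 14 of its 15 summits were interior, at 37.8 per Mb against 12.4 at its edge. Likewise the 8 genes from Olfr164 to Olfr171 on chromosome 16 had 12 summits, all interior. The reverse case was the cluster from Olfr9 to Vmn2r87 on chromosome 10, with 12 of 15 summits at its edges, 75.1 per Mb there against 2.40 inside.

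**Figure D3:**
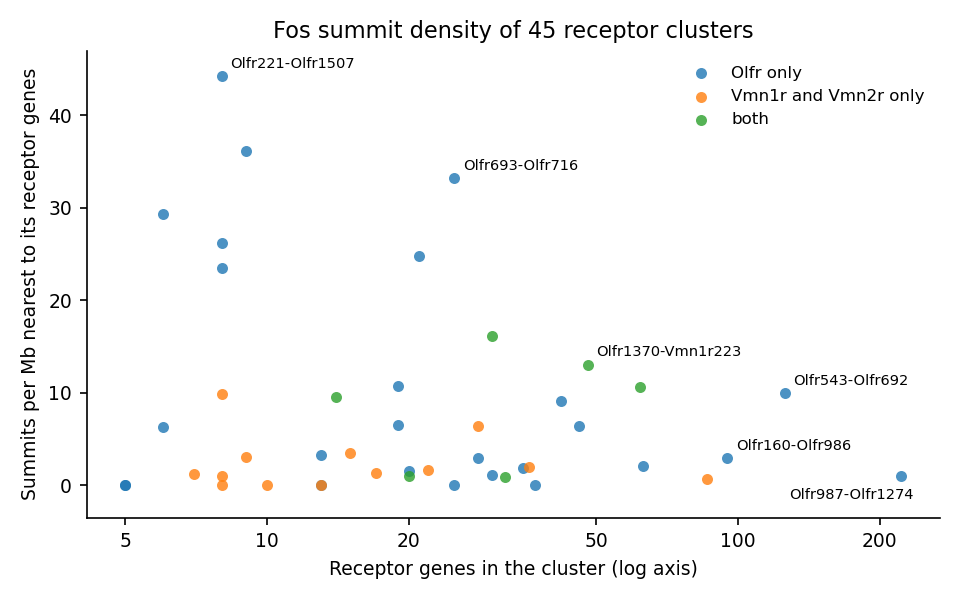
Summits per Mb of the bases nearest to a cluster's receptor genes (y axis) against the number of receptor genes in the cluster (x axis, log scale), 1 point for each of 45 clusters, coloured by receptor family. Every cluster above 20 per Mb has 25 or fewer genes, clusters of that size are also found at 0, and the largest, with 222, stands at 0.997.

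The strongest summits around receptors lay at a few places. Olfr267, an olfactory receptor gene in no cluster, lies between Lpar1, a lysophosphatidic acid receptor gene, and Ecpas on chromosome 4, and 11 summits were nearest to it. Their folds ran from 3.61 to 119.5, the highest of all 318, with 496 fragments at 58745812, 38967 bp from the gene. Summits at 70332 bp and 61824 bp reached 106 and 57.5. A summit of fold 26.0 lay 66 bp beyond the end of the gene opposite to its listed start. All 11 lay on the Lpar1 side of the gene, and 5 of them had folds under 8.

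Next came Olfr56 on chromosome 11, with a summit at 49128585 of 435 fragments (395 to 478), or a fold of 105, at 5588 bp from the gene's span. It lay 15808 bp inside the cluster, between Olfr1396 and Olfr56, and 31598 bp from Ifi47, an interferon-induced GTPase gene just outside. At the other end of the range of positions, a summit of fold 96.0 stood 1240521 bp inside the cluster from Vmn2r90 to Vmn1r237 on chromosome 17, between Vmn2r104 and Fpr-rs7, a formyl peptide receptor gene of the vomeronasal organ. Vmn1r4, the outermost gene of its cluster on chromosome 6, held a summit of fold 73.4 inside its span, 137 bp from its end and 43 bp from the end of Nt5c3, a pyrimidine nucleotidase gene that overlaps it. That summit belongs by position as much to Nt5c3 as to Vmn1r4. The next strongest edge summits had folds of 36.8, 44717 bp beyond Vmn2r87 with no protein-coding gene between it and the end of chromosome 10, of 20.9 near Olfr987 and of 20.7 near Olfr279, 8644 bp from the milk protein gene Lalba.

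Strong summits deep among receptor genes were found on chromosome 7. Olfr653 had 4 summits. One of fold 3.61 lay inside the gene, and those of 83.7, 37.3 and 6.01 stood 484, 1009 and 1463 bp beyond it, the strongest 347 fragments high (311 to 386). The closest non-receptor gene, Trim30d, was 73300 bp away. In the cluster from Olfr467 to Olfr519, which encloses no other protein-coding gene, folds of 55.1, 49.8 and 29.8 stood near Olfr506, Olfr510 and Olfr488, each more than 200 kb from the span of a non-receptor protein-coding gene. Pseudogenes lay closer, at 35482 bp for Olfr506, 24786 bp for Olfr510 and 4319 bp for Olfr488. These receptor genes have close paralogs, and how reads that match several places were treated is not given in the sources used here. Of the 1265 receptor windows, 66 had a letter-identical second window.

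The gene with the most summits had none above a fold of 6. Vmn1r2, near the start of chromosome 4, was nearest to 41 summits, and all of them lay in 10 regions between 3051212 and 3086369, 85714 to 120871 bp before the gene. No protein-coding gene lay between them and the first base counted, and the gene table places an entry, LOC100862468, below that base. Folds there ran from 2.89 to 5.77 with a median of 4.09, in regions up to 3943 bp wide with up to 9 summits each. Without them the 277 other summits had a density of 5.39 per Mb and a median fold of 5.29. Olfr161, the first protein-coding gene on chromosome 16, had 11 summits, 10 of them 351162 to 360226 bp before the gene, and folds from 3.13 to 5.29. Of the 52 summits that precede the first protein-coding gene placed above that base, these 41 and 10 are all but 1.

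Olfr9 opens the chromosome 10 cluster and had 10 summits, 7 outside the cluster and 3 inside. Outside, at 12166 bp, the fold reached 19.002 at a summit inside the lncRNA gene 9030616G12Rik, and inside the 3 folds were 4.33, 6.01 and 7.94. Olfr165 had 9 summits, up to 20.0, 3 of them inside its span. Olfr713, Olfr750, Olfr225, Olfr1371 and Olfr221 had 7, 7, 6, 5 and 5, with highest folds of 21.4, 18.8, 10.8, 13.7 and 7.22.

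**Figure D4:**
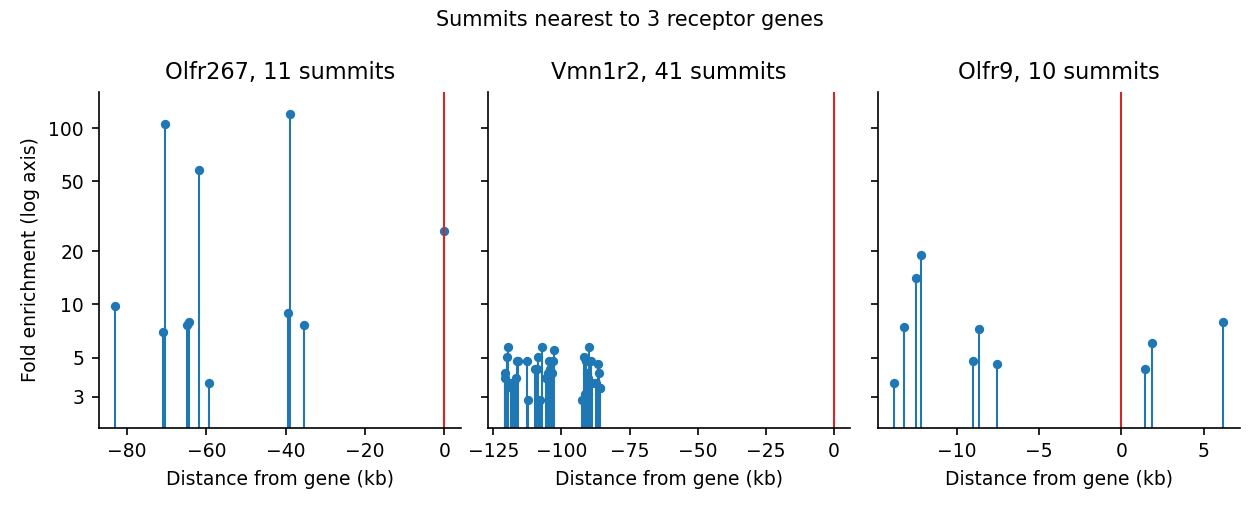
Fold enrichment (y axis, log scale) of the summits nearest to Olfr267, Vmn1r2 and Olfr9 against distance from the gene (x axis, kb, negative before its lower end; the red line is the gene); each stem is a summit. Olfr267 has 3 summits above 50 at a distance, the 41 of Vmn1r2 stay below 6 and over 85 kb away, and those of Olfr9 lie on both sides of the cluster's first gene.

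Few receptor genes had a Fos summit at their ends. A summit lay within 1000 bp of either end of 22 of 1458 receptor genes (1.51%, 95% Wilson interval 0.999 to 2.27), beside 63.3% of all autosomal protein-coding genes. Counting only the listed start, 13 of 1260 matched receptor genes had one (1.03%), beside 63.5%. The highest folds at an end were 83.7 at Olfr653, 73.4 at Vmn1r4, 26.0 at Olfr267, 17.1 at Vmn2r29, 14.4 at Olfr703 and 13.2 at Olfr510. Olfr507, Olfr655 and Olfr1532-ps1 followed at 9.62, 9.62 and 9.38, and Olfr1373, Olfr713 and Vmn1r192 at 6.01, 5.53 and 5.29. The other 10 had folds under 5, down to 10 fragments at Olfr609, Olfr535 and Olfr332. The first and last genes of clusters had an end summit in 4 of 90 (4.44%, 1.74 to 10.9) and the genes between them in 16 of 1317 (1.21%, 0.749 to 1.96), both far below the 63.3%. Of the receptors known from gut endocrine cells, Olfr78 was nearest to 1 summit, 6600 bp away, with a fold of 3.13 and 12 fragments (6.20 to 21.0), and Olfr558 to none.

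Relative to their genes, 21 of the 318 summits (6.60%) lay inside a receptor gene, 16 within 1000 bp outside, 126 from there to 10 kb, 88 from 10 to 50 kb and 67 farther. The median distance was 9696.5 bp. Within 1000 bp of a gene that is not protein-coding lay 36 summits (11.3%), 15 of them with an lncRNA gene closest and 8 with a pseudogene. Among the others, Olfr750 summits of folds 18.8 and 17.8 lay 100 bp from tRNA genes. The same share over all autosomal summits was not computed. No summit lay within 1000 bp of a listed start of another gene. The rule largely sets this last result, because a summit near another protein-coding gene is assigned to that gene.

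Summit density was lower around Vmn2r genes than around the other families. Olfr genes had 7.47 summits per Mb (6.51 to 8.52; 220 summits, 106 of 1104 genes) and Vmn1r genes 7.97 (6.30 to 9.95; 78 summits, 25 of 231 genes), of which the 41 at Vmn1r2 are more than the rest together. Vmn2r genes had 20 summits at 9 of 123 genes, 1.65 per Mb (1.01 to 2.54), and none at an inner edge. Median folds were 5.29, 4.09 and 6.49. Spans differ, with medians of 950 bp for Olfr, 924 bp for Vmn1r and 24544 bp for Vmn2r genes.

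Other chemoreceptor genes also had few summits at their ends, while genes that serve receptor signalling and receptor choice were mixed. Counted by nearest gene, the guanylate cyclase gene Gucy2d had 21 summits and the taste receptor gene Tas2r119 had 13. Most of the other chemoreceptor genes were nearest to none. The shares of genes with an end summit are to be read against the 63.3% of all autosomal protein-coding genes. Of 58 taste, trace amine, formyl peptide and guanylate cyclase receptor genes, 3 had a summit within 1000 bp of an end (5.17%, 1.77 to 14.1): Tas1r1 at a fold of 40.2, 144 bp from the end of its neighbour Zbtb48, the olfactory trace amine receptor gene Taar9 at 18.0 and Tas1r2 at 5.29. All 9 vomeronasal signalling genes had one, with 152 at the G protein gene Gnai2, 103 at B2m, a partner of class I molecules on these neurons, 13.7 at Gnao1 and 5.05 at the channel gene Trpc2, where the summit was nearer to Art5 (92 bp) than to Trpc2 (107 bp). Of the receptor choice and nuclear organisation genes 14 of 17 did, led by the heterochromatin protein gene Cbx5 at 163, the stress kinase gene Eif2ak3 at 126, Atf5 at 69.3 and Lbr, the lamin B receptor, at 58.9, with Lhx2 at 35.4 and none at Ebf3, Ebf4 and Nfia. The Cbx5 summit was 155 bp from that gene and 116 bp from Hnrnpa1, and the Atf5 summit 692 bp from that gene and 122 bp from Nup62. Many of these genes act in many tissues. Of 13 olfactory transduction genes 7 did (53.8%), close to the share of all genes, with 96.5 at Ric8b, 22.1 at Gnb1, 10.1 at the olfactory marker gene Omp and 245 at the channel gene Cnga4, where the summit was 167 bp from the end of Fam160a2 and 30992 bp outside the end of a receptor cluster. No summit was assigned to Omp or B2m as its nearest gene, so the end summits of both lay at least as close to the span of another gene. Among 7 receptor trafficking genes, Reep6 had one, at 166 and 265 bp from Pcsk4, and Rtp1 and Rtp2 had none.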

How the data were processed

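Fos CUT&Tag was performed on 4 libraries of colonic epithelium. The submitters' processing notes name Bowtie2, MACS2 and mm10; versions, commands, duplicate treatment and the libraries that entered the list are not given in the sources used here. In columns of its own, the deposited list holds, for each summit, the authors' fold (a linear ratio over background), −log10 q-value and a score, which repeats the −log10 q-value times 10, cut to whole numbers. The lowest −log10 q-value was 1.80. Which fragments came from which library is not recorded, so depth per library is unknown.

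Summit positions (region start plus offset, 1-based) were assigned to the nearest protein-coding span of an NCBI RefSeq table (GRCm38.p6, whose chromosomes mm10 shares), which gives no strand or exons. It places 105 protein-coding entries, 4 of them receptors, below base 3000001, where counting of bases began; leaving them out changed no assignment. RefSeq start windows of chromosome 18 were not used here. No summit was tied between a receptor and another gene. Folds were whole multiples of 0.2405 within 0.05 steps, and the pileup was taken as that multiple less 1. Python 3.11.15, pandas 2.3.3 and scipy 1.17.1 were used, and assignment, base counts and pileups were checked on simulated data. Comparisons are descriptions: with 1 list there are no replicates, and summits of a region are not independent. The rule for named genes took the receptor genes of the 10 strongest summits, the 10 with the most summits, up to 20 with a boundary summit, Olfr78 and Olfr558, the 5 largest and 5 densest clusters, the neighbours of the 5 strongest edge summits, and up to 4 genes of each list. Clusters and genes named beyond these were chosen after their values were seen. The result for 1 marker gene is not reported here. The members and lists were chosen with earlier results of these data known. Alternatives were stricter −log10 q minimums, 1 summit per region, narrower regions, other cluster gaps, sizes and edges, and other boundaries.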

Additional observations from a re-analysis of the deposited data

How the results depend on the processing

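The higher density of edges held under every alternative run, with ratios from 2.25 to 4.44, the highest with zones set by flanking genes. That division also counts summits near receptors in no cluster, which the main comparison leaves out. The ratio of median folds, 0.955, turned above 1 with −log10 q of at least 10 (1.08), with edge zones of 20 kb or 100 kb (1.14 each) and with at least 10 genes per cluster (1.23), so no direction can be read from it; the cause was not tested. Leaving out single clusters gave ratios from 0.870 to 1.14. With −log10 q of at least 5 and 10, the density around receptors was 4.10 and 2.65 per Mb and the median fold 6.49 and 9.62, because weak summits are removed by construction; with the latter, 0.754% of receptor genes had an end summit. Leaving out Vmn1r2 and gene entries placed below the first base counted were alternatives chosen after seeing the data. No paired analysis was possible because the list has no column per library. Faint sites limit the comparison: 10 fragments was the lowest pileup called.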
